A study of Canis lupus familiaris with 23 samples.

Results

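A set of 88 genes was examined that had reads in healthy dog gingiva and whose transcript level was higher in every oral tumor of the series than in any gingiva sample. The 88 were found among 30951 Ensembl dog gene identifiers in the count table, of which 15716 passed a filter on low counts. Members were chosen by their measured levels: a member had to have its lowest value in 16 tumors above its highest value in 7 gingiva libraries, a mean of at least 10 CPM over the tumors and more than 3 counts in at least 1 gingiva library, and could not be among the 100 most abundant gingiva genes. CPM are read counts set to a common library size, here after scaling with TMM factors (trimmed mean of M values), which correct for differences in composition between libraries. The separation of tumors from gingiva was met by 111 of the 15716 genes (0.706%), and 23 of these had a lower mean than 10 CPM. The other conditions removed 0 genes. All differences from gingiva given here were therefore used to choose the members and are descriptions without a test.

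Bulk RNA sequencing was carried out on dog tissue of 3 kinds: healthy gingiva (7 libraries), canine acanthomatous ameloblastoma (CAA, 5 libraries) and oral squamous cell carcinoma (COSCC, 11 libraries). The tumors came from the maxilla (3 CAA, 7 COSCC) or the mandible (2 CAA, 4 COSCC), and for 6 of the 7 gingiva samples the jaw was undetermined. The samples came from mixed-breed dogs and dogs of named breeds, and carry a code, FS or MC, that the labels do not explain (2 FS and 3 MC in CAA, 6 and 5 in COSCC, 4 and 3 in gingiva). No age, treatment or dog identifier is given, so p-values measure only the spread between these samples.

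Gingiva is the keratinized mucosa around the teeth, an epithelium resting on connective tissue. CAA arises from odontogenic epithelium, the tissue that forms teeth, and invades the jaw bone locally. COSCC is a malignant tumor of the oral surface epithelium that invades and can spread to other sites. Genes carry only identifiers in the count table, and the gene table used for names held 0 of these (RefSeq, assembly UU_Cfam_GSD_1.0). The roles of the members, the levels of other genes of their pathways and the markers of the labelled tissues are for this reason not given, and 6 members are referred to by identifier.

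The libraries were of similar size, with 15120326 to 16813220 counts. Their composition differed between gingiva and tumors: the 10 most abundant genes took 14.1% to 24.2% of the counts in gingiva, 7.72% to 17.3% in CAA and 8.78% to 20.3% in COSCC. The TMM factors, which follow composition, were 1.15 ± 0.106 for CAA (n = 5, SD), 1.03 ± 0.140 for COSCC (n = 11, SD) and 0.887 ± 0.104 for gingiva (n = 7, SD). The part of composition in the member levels was not tested beyond the scalings described below.

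CPM do not account for gene length, so the ranges of CPM over members given here describe read counts and do not rank the genes by transcript number. The gingiva means of the members ran from 0.194 to 103 CPM with a median of 9.65 CPM. Of the 88, 2 had a gingiva mean under 1 CPM, 45 lay between 1 and 10 CPM, 35 between 10 and 50 CPM and 6 at 50 CPM or more. In the tumors the means ran from 10.3 to 699 CPM with a median of 25.4 CPM, and 11 members reached 100 CPM or more. Together the members accounted for 0.130% ± 0.0190 of a gingiva library (n = 7, SD), for 0.581% ± 0.138 of a CAA library (n = 5, SD) and for 0.469% ± 0.0926 of a COSCC library (n = 11, SD). In bulk tissue, more cells of a type that expresses a gene and more RNA per cell cannot be told apart.

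The size of the rise varied widely among the members. The ratio of the tumor mean to the gingiva mean had a median of 3.07, with quartiles of 2.14 and 4.36 and extremes of 1.44 and 111. It was under 2 in 15 members, 2 to 4 in 48, 4 to 8 in 16 and 8 or more in 9. By group means, 63 members were at least 2-fold above gingiva in both CAA and COSCC. On the log2 scale of the edgeR fit, the difference from gingiva had a median of 1.49 in CAA (0.44 to 4.93) and of 1.61 in COSCC (0.56 to 7.19), beside medians of 0.04 and 0.14 over all 15716 genes. Scaling by library totals alone raised the median over all genes to 0.41 in CAA and 0.35 in COSCC. The medians of the members relative to all genes were 1.45 and 1.47 under TMM, and 1.45 and 1.49 under library totals.

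**Figure D1:**
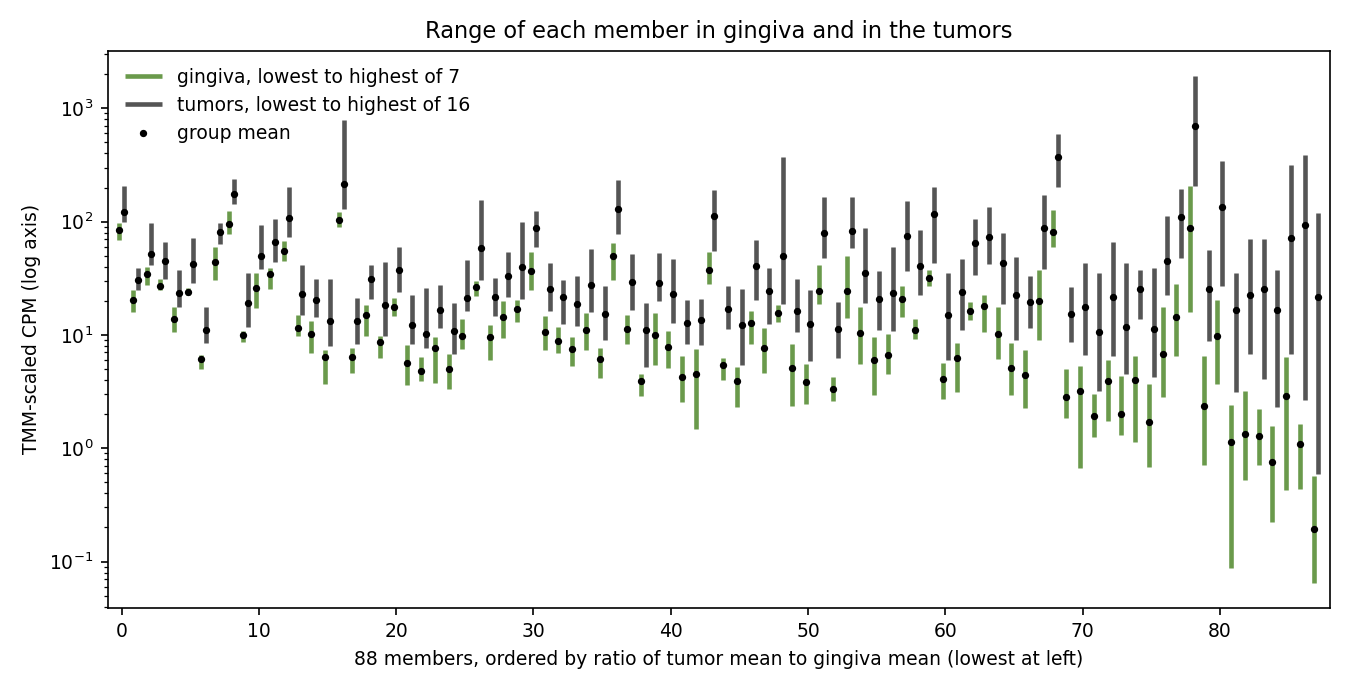
Vertical lines span the lowest to the highest TMM-scaled CPM (log axis) of each of the 88 members in 7 gingiva libraries (green) and 16 tumors (grey), with points at the group means; members are ordered along the horizontal axis by the ratio of tumor mean to gingiva mean. Lines at the left are short and close together, and those at the right are long, with gingiva means of at most 9.85 CPM in the 9 members with ratios of 8 or more.

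The members are described here by the size of this ratio. Since the ratio divides by the gingiva mean, and a ratio under 2 with every tumor above gingiva limits the spread among tumors, the values of these classes follow in part from how they were formed. The 15 members with a ratio under 2 had a median gingiva mean of 26.1 CPM, and their highest tumor was 1.55 to 2.99 times their lowest. The 9 members with a ratio of 8 or more had a median gingiva mean of 1.28 CPM, and their highest tumor was 6.36 to 202.2 times their lowest. The member with the smallest ratio had 84.5 ± 11.3 CPM in gingiva (n = 7, SD), and its tumor means were 125 ± 30.9 CPM for COSCC (n = 11, SD) and 115 ± 8.84 CPM for CAA (n = 5, SD). Its highest gingiva library was at 96.7 CPM and its lowest tumor at 99.3 CPM. Its highest tumor was at 207 CPM.

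The member with the most counts in the tumors had wide ranges. It had 88.2 ± 71.0 CPM in gingiva (n = 7, SD), with values from 15.9 to 207 CPM. In the 5 CAA it stood at 936, 794, 539, 1484 and 1925 CPM, and in COSCC it ran from 208 to 1116 CPM with a median of 417 CPM. The lowest tumor, COSCC replicate 4, was at 208.2 CPM and the highest gingiva library, replicate 2, at 206.8 CPM. CAA and COSCC did not differ past the threshold in this member (log2 difference 1.18, edgeR adjusted p = 0.105).

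Most members cleared the gingiva range by little. The ratio of the lowest tumor to the highest gingiva library had a median of 1.13 and a maximum of 2.13. It was under 1.1 in 41 members, 1.1 to 1.5 in 35 and 1.5 or more in 12. The members just inside the limit had ratios of 1.0003, 1.0013 and 1.0013, and the genes just outside it had 0.998, 0.998 and 0.996. In total 68 genes of sufficient level lay between 0.9 and 1, those just outside the limit included. On the limit for abundance, the nearest members had tumor means of 10.3 and 10.5 CPM and the nearest genes outside it 9.92 and 9.90 CPM. Counting error was described by exact 95% Poisson intervals of the counts in the lowest tumor and the highest gingiva library. The intervals did not overlap in 18 members and overlapped in 70. Overlap does not by itself place a gap within counting error. Such intervals leave out all other error, and reads counted without molecular identifiers are not independent molecules.

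ENSCAFG00000014028 had the widest gap of all members, its lowest tumor being 2.13 times its highest gingiva library. In gingiva it ran from 0.523 to 3.20 CPM with a median of 1.25 CPM. In the CAA libraries it was at 21.8, 7.62, 12.8, 9.25 and 12.5 CPM. In COSCC it ran from 6.83 to 69.7 CPM with a median of 27.3 CPM. The lowest tumor was COSCC replicate 1, with 121 counts, and the highest gingiva library was replicate 3, with 39 counts. The CAA values all lay within the range of COSCC, and the log2 difference between the tumors, -1.09 ± 0.46 (SE), did not pass the threshold (edgeR adjusted p = 0.117).

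ENSCAFG00000024901 had the next widest gap, a ratio of 2.11, and was far more even. Its gingiva values ran from 1.13 to 6.56 CPM with a median of 4.12 CPM. Its CAA values were 17.5, 23.5, 20.4, 19.7 and 37.3 CPM. The COSCC values ran from 13.9 to 32.5 CPM with a median of 27.3 CPM. Its highest tumor was 2.69 times its lowest. The mean of COSCC was 26.4 ± 5.13 CPM (n = 11, SD) and that of CAA 23.7 ± 7.93 CPM (n = 5, SD), and the fitted log2 difference between them was -0.16 ± 0.28 (SE; edgeR adjusted p = 0.733).

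Across the 16 tumors, the other members most like ENSCAFG00000014028 had Spearman rho of 0.641 and 0.635 with it, and the median over the other members was 0.0353. For ENSCAFG00000024901 the highest values were 0.635 and 0.571, with a median of 0.171. These are descriptions over 16 libraries that share a scaling and 2 tumor types. Most members shared little of their order of tumors. Within the 11 COSCC, the 3828 pairs of members had a median rho of 0.118, beside 0.000 over all gene pairs. The member pairs thus leaned to positive values against that background. It also holds genes with tumor means under 10 CPM, unlike the members, so it is not matched to them in level. Of the member pairs, 14.2% had a rho over 0.5 and 3.89% a rho under -0.5, beside 10.6% and 9.91% of all gene pairs.

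**Figure D2:**
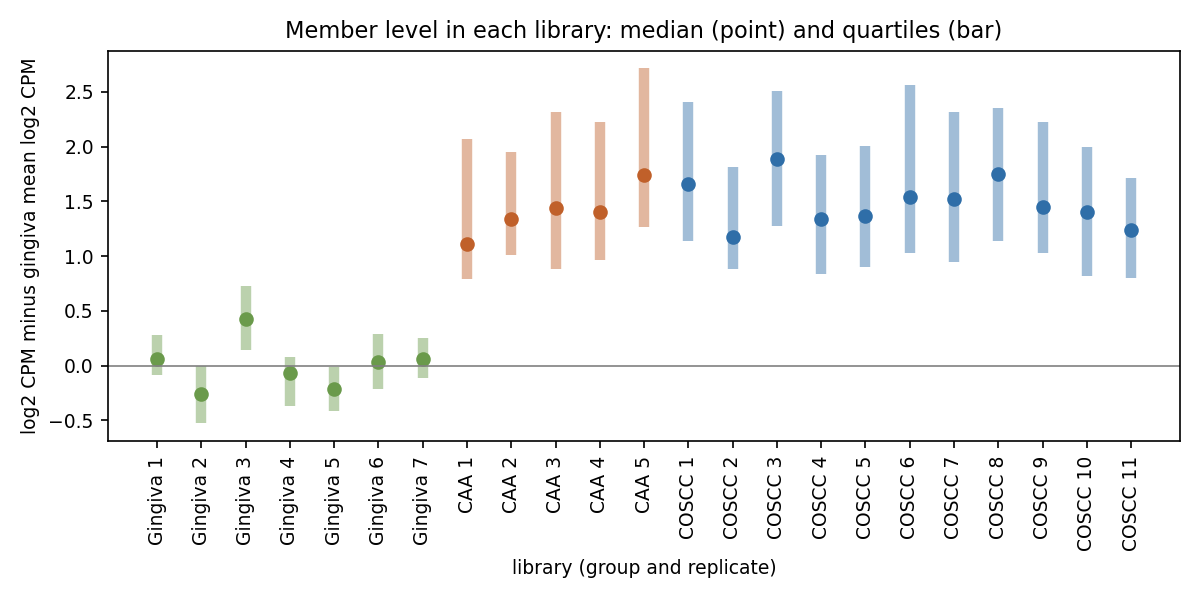
For each library (horizontal axis, by group and replicate) the point is the median over the 88 members of log2 CPM minus the gingiva mean log2 CPM, and the bar spans the quartiles. Tumor medians lie between 1.11 and 1.89 and gingiva medians between -0.26 and 0.42, gingiva replicate 3 being highest.

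The typical member was raised in every tumor of both types, as the rule requires. The median over members of log2 CPM minus the gingiva mean was 1.48 ± 0.216 for COSCC (n = 11, SD) and 1.41 ± 0.226 for CAA (n = 5, SD). In CAA it was lowest in replicate 1, at 1.11, and highest in replicate 5, at 1.74. In COSCC it ran from 1.17 in replicate 2 to 1.89 in replicate 3. No single tumor set the lower edge of the set: COSCC replicate 11 was the lowest tumor in 14 members, COSCC replicate 2 in 13, and COSCC replicate 5 and CAA replicate 3 in 10 each. COSCC replicate 3 was the highest tumor in 20 members, and COSCC replicate 1 and CAA replicate 5 in 13 each. The median coefficient of variation of the members was 0.245 in CAA, 0.363 in COSCC and 0.262 in gingiva, beside 0.236, 0.353 and 0.259 over the 9901 genes whose tumor mean reached 10 CPM.

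The upper edge of the gingiva range, in contrast, was set mainly by 1 library. Gingiva replicate 3 had the highest gingiva value in 46 of the 88 members, followed by replicate 6 in 13. The shares over all tested genes were not computed for these counts or for those of the tumors above, so they have no background beside them. The median member level of gingiva replicate 3 was 0.42 above the gingiva mean on the log2 scale, and the other gingiva libraries lay between -0.26 and 0.07. The difference grew with the size of the rise, from 0.15 in the members with a ratio under 2 to 1.21 in those with a ratio of 8 or more. The spread of all gingiva libraries grew as well, from an SD of 0.162 to 0.626 between these classes, and replicate 2 went from -0.26 to -0.82. In the 46 members gingiva replicate 3 exceeded the next gingiva library by a median ratio of 1.19, with extremes of 1.003 and 2.12. Its 10 most abundant genes took 24.2% of its counts and its TMM factor was 0.775, beside 24.0% and 0.760 in replicate 2, whose median member level was the lowest of the gingiva libraries. Without gingiva replicate 3, 223 genes met the rule, among them 84 of the 88 members and 139 others. Without any other single library the number was 89 to 109.

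**Figure D3:**
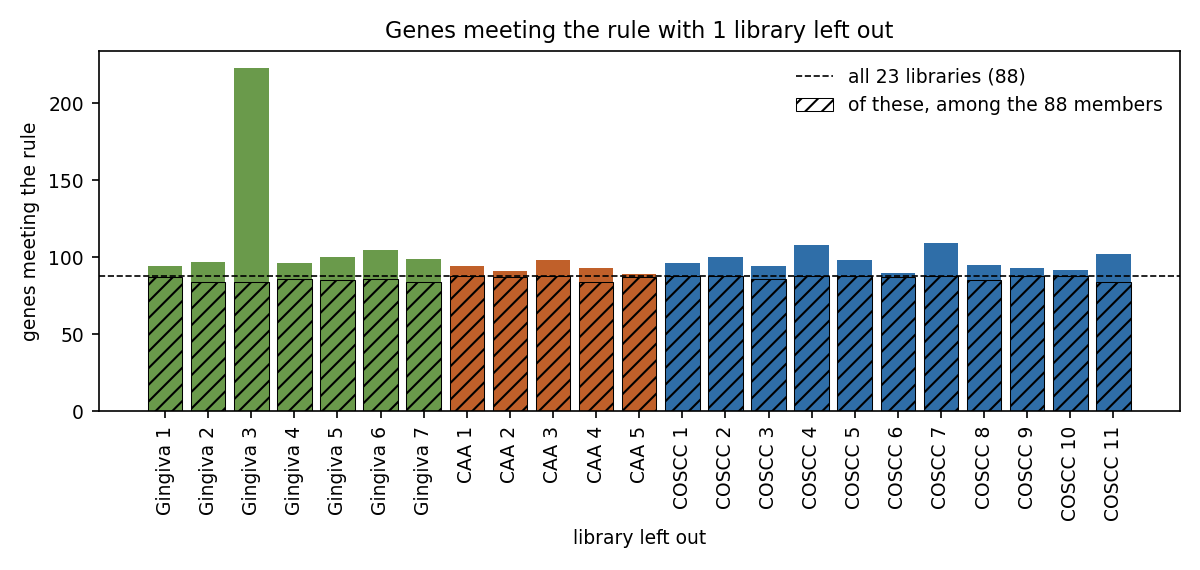
Bars give the number of genes that met the rule with 1 library left out (horizontal axis; green gingiva, orange CAA, blue COSCC), hatching the part that belongs to the 88 members, and the dashed line the 88 found with all libraries. The bar for gingiva replicate 3 reaches 223, and the others lie between 89 and 109.

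Of the 88 members, 79 met the rule in each of the 23 sets with 1 library left out. Under median-of-ratios scaling 85 genes met it, 81 of them members. Under library totals 219 genes met it, 77 of them members. In all 3 scalings 71 members met it, and 66 met it in all 3 scalings and in all 23 sets.

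The rule makes no use of the difference between the tumor types, which was tested in the same edgeR fit over all 15716 genes. Most members did not differ between CAA and COSCC past the threshold of an adjusted p of 0.05. There were 9 members with an adjusted p under 0.05 (10.2%), beside 8.72% of all genes, so that the share among members was near the background. CAA was higher in 3 (background 4.09%) and lower in 6 (background 4.63%). The median log2 difference was -0.07 in the members and -0.07 over all genes. The members' CAA and COSCC ranges overlapped in all cases: 0 members were separated, beside 0.77% of all genes with CAA higher and 0.337% with CAA lower.

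The number of members called depended on the method and on single libraries. DESeq2 called 10 members (11.4%), beside 18.5% of all genes, and limma voom with sample quality weights 23 (26.1%), beside 37.6%. Without CAA replicate 2 there were 3 called members, without CAA replicate 3 or CAA replicate 5 there were 2, and without COSCC replicate 7, 8, 9 or 10 there were 5. Over all genes the share called fell as well, to 1.97%, 1.69% and 2.12% without these CAA libraries and to 5.35% to 7.91% without these COSCC libraries, beside 3.41%, 2.27%, 2.27% and 5.68% of members. With library totals alone 6 members (6.82%) and 7.59% of all genes were called. CAA was higher in 4 of these 6 members, against 3 of 9 under TMM, and in 61.3% of all genes called, against 46.9%. That scaling moved the median of all genes by 0.16.

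**Figure D4:**
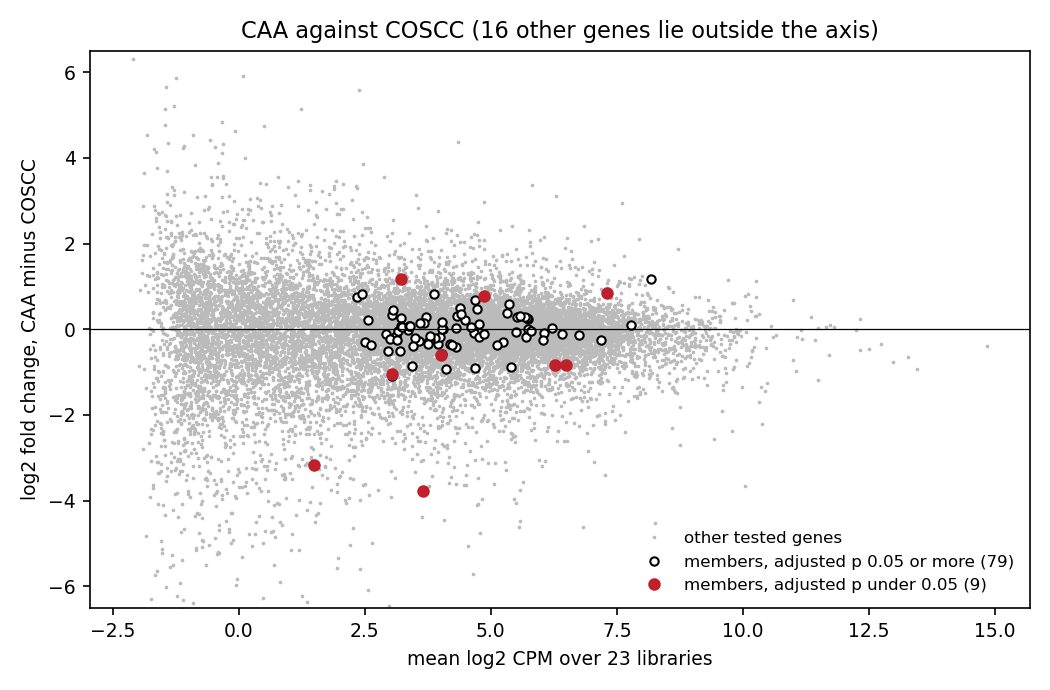
Each point is a tested gene, with its mean log2 CPM over 23 libraries on the horizontal axis and the log2 fold change of CAA minus COSCC on the vertical axis; members are open black (adjusted p of 0.05 or more) or red (under 0.05) and other genes grey. The 9 red members include 2 below -3, and most members lie close to 0.

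ENSCAFG00000007307 had the largest difference between the tumor types. Its gingiva values ran from 0.436 to 1.64 CPM with a median of 0.980 CPM. In CAA it was at 6.23, 5.42, 26.7, 7.56 and 2.68 CPM. In COSCC it ran from 7.04 to 384 CPM with a median of 67.7 CPM. The difference was -3.77 ± 0.82 on the log2 scale (SE; edgeR adjusted p = 0.0126). CAA replicates 3 and 4 lay within the range of COSCC, and the other CAA libraries lay between the highest gingiva library and the lowest COSCC. The call held in each of the 23 fits with 1 library left out, with differences of -4.59 to -3.46.

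ENSCAFG00000005913 was nearly silent in gingiva, with 1 to 8 counts per library and a median of 0.148 CPM. Its CAA values were 3.39, 2.05, 0.594, 2.87 and 7.52 CPM. In COSCC it ran from 1.103 to 120 CPM with a median of 20.8 CPM, its highest tumor being 202.2 times its lowest. The difference of CAA from COSCC was -3.17 ± 0.96 on the log2 scale (SE; edgeR adjusted p = 0.0420). The carcinomas fell into low and high libraries: replicates 1 to 5 lay between 1.103 and 5.998 CPM, within the range of CAA, and replicates 6 to 11 between 20.8 and 120 CPM. The call was lost in 10 of the 23 fits that left out 1 library (adjusted p up to 0.120 without CAA replicate 3). With the jaw as a covariate, in a fit of CAA and COSCC alone, the difference was -2.15 (edgeR adjusted p = 0.157). Its lowest tumor had 11 counts and its highest gingiva library 8, so its place in the set rests on few counts.

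Among the members called higher in CAA, ENSCAFG00000010082 had the largest difference. It ran from 2.71 to 5.61 CPM in gingiva, with a median of 4.03 CPM. In CAA it was at 20.3, 25.5, 27.5, 13.2 and 35.2 CPM. The COSCC values ran from 5.97 to 18.8 CPM with a median of 9.97 CPM. The CAA values exceeded all COSCC values except for replicate 4, and the difference was 1.17 ± 0.26 on the log2 scale (SE; edgeR adjusted p = 0.0126). Without CAA replicate 5 it missed the threshold (edgeR adjusted p = 0.0546).

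The call of ENSCAFG00000018181 was lost in 15 of the 23 fits that left out 1 library. It ran from 89.9 to 122 CPM in gingiva, with a median of 106 CPM, and from 128 to 253 CPM in COSCC, with a median of 159 CPM. In CAA it was at 182, 208, 163, 217 and 788 CPM. The difference between the tumors was 0.86 ± 0.26 (SE; edgeR adjusted p = 0.0462). Without CAA replicate 5, the library at 788 CPM, it was 0.16 (edgeR adjusted p = 0.551). In the other 5 members that passed the threshold the difference was 0.77 in the member higher in CAA and -1.05 to -0.59 in the 4 lower in CAA.

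**Figure D5:**
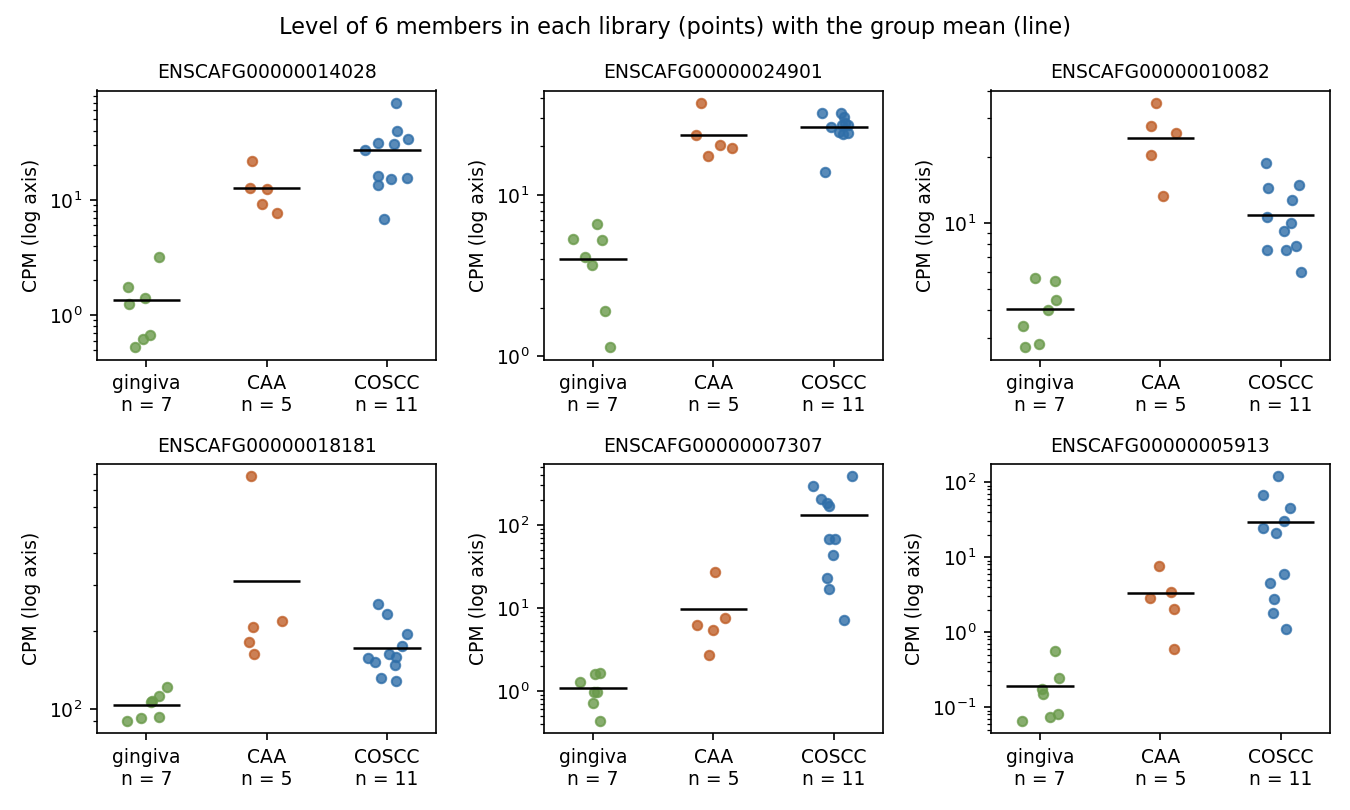
Points are the TMM-scaled CPM (log axes) of 6 members in each library of gingiva (n = 7), CAA (n = 5) and COSCC (n = 11), and lines are group means. ENSCAFG00000024901 shows tight tumor values, ENSCAFG00000007307 and ENSCAFG00000005913 spread widely among COSCC, and 1 CAA library at 788 CPM stands apart in ENSCAFG00000018181.

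The jaw of origin was compared within COSCC, 4 mandibular against 7 maxillary libraries. With edgeR, 0 of the 88 members and 0 of 14958 genes (0%) had an adjusted p under 0.05. At an unadjusted p under 0.05 there were 6 members (6.82%), beside 13.1% of all genes. DESeq2 called 3 members (3.41%), beside 2.67% of all genes, and limma voom 0. The mandible was higher in 33 members and lower in 55, a split that turned to 59 and 29 with library totals, which moved the median of all genes by 0.23. ENSCAFG00000005913 had 1.103 to 5.998 CPM in the mandible and 2.76 to 120 CPM in the maxilla, a log2 difference of -3.73 (edgeR unadjusted p = 0.00143, adjusted p = 0.243). The code was MC in all 4 mandibular COSCC and FS in 6 of the 7 maxillary ones, so the jaw and the code can hardly be told apart.

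The code was tested in 23 libraries, with the group as a further term. With edgeR, 0 members and 0 of all genes (0%) had an adjusted p under 0.05, and 4 members (4.55%) had an unadjusted p under 0.05, beside 5.06% of all genes. DESeq2 and limma voom called 0 members. Libraries with the code FS were higher in 68 members and lower in 20, with a median log2 difference of 0.13 beside -0.01 over all genes. With library totals the split was 42 and 46, the median of all genes having moved by -0.12.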

How the data were processed

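The deposited values are raw counts per gene, one column per library, as whole numbers with no normalization by the authors. The submitters' processing notes name STAR and canFam3 without a version. The counting program, the use of strand and the annotation release are not given in the sources used here, so values of near-identical or overlapping genes are uncertain. Libraries were directional and made from total RNA depleted of ribosomal RNA, per the labels' protocols. Each column was assigned to its sample through the library name in the labels.

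Counts were analysed with edgeR 4.0.16 in R 4.3.3. Genes were kept with filterByExpr by group, scaled by TMM and fitted with the quasi-likelihood model (glmQLFit, glmQLFTest) to the 23 libraries, each group having its own mean. Adjusted p are Benjamini-Hochberg values over all genes tested. Standard errors (SE) are approximate, being the size of the log2 difference over the root of its F statistic. Jaws were fitted within COSCC alone. For library medians, log2 CPM was computed with 2 as the prior count. DESeq2 1.42.0, limma 3.58.1, other scalings, filters, covariates and left-out libraries served as alternatives. The selection rule and the edgeR contrast were tested on simulated data with known changes. No pair of libraries within a group agreed within counting noise (in 86 pairs the mean chi-square per gene was 49.7 or more).

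The members and tests were chosen with earlier results of these data known. Identifiers given are the 2 members with the largest ratio of lowest tumor to highest gingiva library, and the 2 per direction with the largest CAA and COSCC difference past the threshold. The planned gene lists and cell type markers need symbols and were not used here.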

Additional observations from a re-analysis of the deposited data

Results flagged for a closer look

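A search for single libraries far from the rest of their group, by Dixon's 95% limit, covered 16 sets of CAA or gingiva values, and 4 passed it. The limit gives about 1 in 20 by chance only for normally distributed values. CPM were used without a log except for the median member levels, which passed the limit in neither group. The 4 of 16 is therefore no measure of an excess over chance. The sets are not independent, and the 11 COSCC were not examined. ENSCAFG00000018181 was at 788 CPM in CAA replicate 5, the next CAA library being at 217 CPM. ENSCAFG00000007307 was at 26.7 CPM in CAA replicate 3, the next being at 7.56 CPM. Gingiva replicate 7 had 0.565 CPM of ENSCAFG00000005913, which stands for 8 counts. The members together summed to 1928 CPM in gingiva replicate 3, and to 1301 to 1495 CPM in the other gingiva libraries.

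Of the members given by identifier, 4 were named because they had the largest differences between CAA and COSCC past the threshold of the edgeR test, so their calls here follow from that choice. The log2 differences of CAA minus COSCC were 1.17 in ENSCAFG00000010082 and 0.86 in ENSCAFG00000018181, with edgeR adjusted p of 0.0126 and 0.0462. They were -3.77 in ENSCAFG00000007307 and -3.17 in ENSCAFG00000005913, with edgeR adjusted p of 0.0126 and 0.0420. The calls of ENSCAFG00000018181 and ENSCAFG00000005913 were lost in 15 and 10 of the 23 fits that left out 1 library.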

How the results depend on the processing

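The number of genes meeting the rule, 88, became 219 with library totals and 12 when the lowest tumor had to be at least 1.5 times the highest gingiva library. Under the other scaling, filters, limits of mean level and the inclusion of abundant gingiva genes it was 60 to 96, and with each library left out 89 to 223. With library totals, an alternative added after seeing the data, the members' median log2 fold change from gingiva rose to 1.86 in CAA and 1.84 in COSCC. Between CAA and COSCC, where 1371 genes and 9 members were called, DESeq2 called 2902 genes and limma voom 5903 genes and 23 members. A fit of CAA and COSCC alone, over 15331 genes, called 432 genes (2.82%) and 3 members (3.41%). That fit with the jaw as a covariate called 318 genes (2.07%) and 2 members (2.27%). Without a low-count filter 949 genes (3.52%) and 5 members (5.68%) were called. With each library left out the counts were 270 to 2261 genes (1.69% to 14.5%) and 2 to 12 members (2.27% to 13.6%). The numbers of genes called were 2257 and 2261 without COSCC replicates 3 and 5, 837 without COSCC replicate 9, and 770, 315, 270, 2076 and 338 without CAA replicates 1 to 5. The cause of these changes was not tested. Between the jaws, DESeq2 called 400 genes and 3 members and limma voom 3 genes, and leaving out a library gave 0 to 1 genes and 0 members. For the code, DESeq2 called 2 genes.

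With a replicate block, 154 genes (0.980%) and 0 members were called between CAA and COSCC. COSCC replicates 6 and 7 have no CAA library of their number, and COSCC replicates 8 to 11 have no partner in either group. In that fit the contrast therefore rests mainly on COSCC replicates 1 to 5, which are the carcinomas low in ENSCAFG00000005913. In the labels, same-numbered samples share only the replicate number, and their library names hold different numbers. Of 17 same-numbered pairs 5 had deviations from their group means that correlated over 0.1 (-0.242 to 0.266). The median correlation was 0.0208, beside 0.0003 in the other pairs, and 3 of 19 libraries correlated best with their own number. Such correlations cannot show whether samples came from the same dog. Among the 4 members given by identifier for this contrast no recomputed difference changed direction, but with the replicate block that of ENSCAFG00000005913 was -0.31 and that of ENSCAFG00000018181 0.46. ENSCAFG00000007307 missed the threshold only with the replicate block and ENSCAFG00000010082 only there and without CAA replicate 5. ENSCAFG00000018181 and ENSCAFG00000005913 missed it in 15 and 10 of the 23 fits with a library left out. They also missed it in 6 of 10 and 6 of 11 other settings, as DESeq2 gave no adjusted p for ENSCAFG00000018181. Depth bears on the smallest gaps: the 95% Poisson intervals of the lowest tumor and the highest gingiva library overlapped in 70 members. Such overlap does not by itself place a gap within counting error.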

Other observations

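After centring each tumor type, 18 of the 3828 pairs of members had a Spearman rho of at least 0.8 across the 16 tumors. These pairs linked 12 members into the largest group, joined 10 others in pairs, and left 66 members unlinked. The share of all gene pairs with a rho of at least 0.8 was not computed, so these numbers have no background beside them. The 12 were chosen by their values, so the following is a description. Their ratios of tumor mean to gingiva mean ran from 1.94 to 13.5 with a median of 3.57. Their median log2 level above gingiva was 1.65 ± 0.524 for COSCC (n = 11, SD) and 1.92 ± 0.297 for CAA (n = 5, SD). Among COSCC libraries it was highest in replicate 3, at 2.44, and lowest in replicate 2. In gingiva it was again highest in replicate 3, at 0.62.

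One member of the 9 with ratios of 8 or more differed from ENSCAFG00000005913 in its order of jaws. It was chosen after its values were seen and had 0.763 ± 0.550 CPM in gingiva (n = 7, SD). Its mandibular COSCC libraries were at 37.8, 10.5, 22.7 and 36.9 CPM and its maxillary ones between 2.31 and 12.1 CPM, a log2 difference of 2.12 that did not pass adjustment (edgeR adjusted p = 0.243).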
